A study of Homo sapiens with 8 samples.

Results

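The interleukin-6 (IL-6) family genes followed here were the ligands IL6, IL11, LIF and CLCF1, the receptor subunits IL6R, IL6ST, LIFR and OSMR, the feedback inhibitor SOCS3 and the transcription factor STAT3. They were chosen by gene symbol from a count table of 27696 genes, in which all 10 were present, and all 10 were among the 13798 genes with enough reads to be tested. The RNA came from IMR90 cells, human primary fibroblasts from embryonic lung, kept for 3 days in medium conditioned by a second culture of IMR90 cells that carried ER:RAS, a form of the RAS oncogene switched on by 4-hydroxytamoxifen (4-OHT). The donors had been given 4-OHT for 0, 4, 7 or 10 days, and recipients of their media are labelled D0, D4, D7 and D10. The recipients themselves did not carry ER:RAS, and the D0 controls also received ER:RAS-conditioned medium, so D0 cells are not untreated cells. The study's methods state that the medium was conditioned without serum for 72 h, filtered and frozen, and that serum was added to 1% before use. Each group has 2 libraries from 2 independent experiments. Replicate numbers 1 and 2 were taken as experiment 1 and experiment 2. The 8 libraries held between 11708193 and 13395912 counted reads. The comparison asks how this signalling family differs in normal fibroblasts given medium from cells at successive stages of oncogene-induced senescence. Between D0 and the later days, the donors' exposure to 4-OHT and their stage change together, so the parts of these cannot be told apart.

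Cytokines of this family act by drawing receptor chains together, one of which is usually IL6ST, the shared chain also called gp130. IL-6 and IL-11 first bind their own receptors, IL6R and IL11RA, which then recruit IL6ST, whereas LIF pairs LIFR with IL6ST and oncostatin M pairs OSMR with IL6ST. The receptors activate JAK kinases, which phosphorylate STAT3, and STAT3 enters the nucleus and turns on genes that include SOCS3, which in turn silences the receptor. IL-6 is a hallmark of the secretome of senescent fibroblasts, the SASP, IL-11 is best known in fibroblasts for its link to matrix production, and the acute-phase response of the liver is the classical output of the pathway.

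The sequences just upstream of IL6 and IL11 are shown because these genes had the largest D10 log2 fold changes of the 10. RefSeq windows of 250 bases before an annotated start on GRCh38.p14 were available for 8 of the 10 genes, in 11 windows, with LIF and CLCF1 as the genes not matched. Both strands were searched for the letters TTCNNNGAA (the STAT motif), TGANTCA (AP-1), GGGNNTTTCC (NF-kB) and TTGCNNAA (C/EBP), and capitals mark the matches. The IL6 window lies at chr7:22726950-22727199 on the plus strand and the IL11 window at chr19:55370464-55370713 on the minus strand, both written 5′ to 3′. The IL6 window precedes a RefSeq start and lies inside the IL6 gene as GENCODE release 29 places it, where the gene begins further upstream, at chr7:22725884.
IL6: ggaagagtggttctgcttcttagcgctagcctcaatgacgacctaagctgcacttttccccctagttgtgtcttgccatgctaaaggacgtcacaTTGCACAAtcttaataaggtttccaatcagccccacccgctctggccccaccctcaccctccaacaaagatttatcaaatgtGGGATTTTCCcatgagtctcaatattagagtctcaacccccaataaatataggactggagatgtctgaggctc
IL11: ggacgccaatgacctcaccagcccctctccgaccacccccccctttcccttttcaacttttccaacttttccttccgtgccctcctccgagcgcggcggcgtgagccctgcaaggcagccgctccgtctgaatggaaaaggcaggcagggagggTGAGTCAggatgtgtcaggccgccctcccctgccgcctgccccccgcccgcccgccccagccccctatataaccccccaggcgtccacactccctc
In the IL6 window the C/EBP letters began 155 bases and the NF-kB letters 73 bases before the start, and in the IL11 window the AP-1 letters began 96 bases before it. Neither window held the STAT letters, which were found in 2 of the 3 LIFR windows, 165 and 182 bases before the start, and in no other window of the 8 genes. One LIFR window also held the C/EBP letters, 31 bases before its start, and the OSMR window held them 73 bases before its start. The SOCS3 windows lie before RefSeq starts, at chr17:78360926-78361175 and chr17:78359668-78359917. In GENCODE release 29 SOCS3 begins at chr17:78360077 on the minus strand. The bases just before that start lie in neither window and were not searched. Among 35116 promoter windows of this length the NF-kB letters occurred in 1.73%, the STAT letters in 6.57%, the AP-1 letters in 6.57% and the C/EBP letters in 9.05%. The matches did not overlap each other, and a match is a description of the letters, not evidence of a bound factor.

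Before the results, some features of the libraries need stating. All 8 libraries carried fibroblast markers at high level, with COL1A1 between 1295 and 14499 CPM, edgeR's counts scaled to the normalized library size. The D10 library of experiment 2 stood apart, with a summed level of 8 fibroblast markers of 9941 CPM against 30031 to 46315 CPM in the other libraries and the lowest COL1A1, 1295 CPM against 8694 CPM or more elsewhere. COL1A2, COL3A1, VIM, THY1 and DCN were also lowest there, while LUM and PDGFRA were not. LUM was at 258 CPM there, in a range of 147 to 444 CPM over all libraries. PDGFRA was at 427 CPM, in a range of 396 to 636 CPM. Among these markers, in a fit with the experiment as a block, DCN fell at D10 (log2 fold change -1.75, edgeR adjusted p = 0.0362) and LUM at D7 (-1.08, edgeR adjusted p = 0.0408), and the part of this in the results was not tested. The D10 log2 fold change is given with and without that library for IL6, IL11, LIF, CLCF1, IL6R, IL6ST, LIFR, SOCS3 and SOCS2. The same holds for genes listed as STAT3 targets that were called at D10, and many other values are given by experiment. In a fit that leaves out a D10 library, D10 holds 1 library, which is assumed to vary like the libraries of the other groups, so such a fit gives a value and is not a second test of the call. Markers of other cells were near 0 in every library. PTPRC, the pan-leukocyte marker, had 0 or 1 counts, CDH1 0 to 3, CDH5 0 to 5 and EPCAM 3 to 7, and the 4 leukocyte markers together summed to 1.53 to 3.77 CPM at D0, 1.94 to 3.41 at D4, 3.11 to 3.36 at D7 and 2.21 to 3.25 at D10. The 3 endothelial markers summed to between 0.969 and 3.74 CPM in all libraries, and the 2 epithelial markers analysed to at most 0.764 CPM. Because these are bulk cultures, more RNA per cell and more cells expressing a gene cannot be told apart. As checks, HRAS had 429 to 852 counts, and ESR1, whose hormone-binding part is often used in ER fusions, had at most 4 counts in any library. MKI67, a proliferation marker, lay between 3.47 and 24.8 CPM.

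The test was edgeR's quasi-likelihood method in a fit of all 8 libraries by group, with Benjamini-Hochberg adjustment over all genes tested and a threshold of 0.05. The same test was also fitted with the experiment as a block, which compares each D4, D7 or D10 library with the D0 library of its own experiment, and that value is given where it changes a call. Without the block the test called 0% of all genes at D4, 0% at D7, 0.29% at D10 and 0% for D10 against D7, and with the block it called 0.275%, 1.25%, 4.99% and 0.319%. Of the 10 genes, 0 passed in any of the 4 comparisons without the block, although 1, 1, 6 and 3 had an unadjusted p under 0.05. With the block, 1 of 10 passed at D4, 1 at D7, 3 at D10 and 2 for D10 against D7. DESeq2, the tool named in the study's methods, called 0.287%, 0.785%, 2.17% and 0.446% of all genes, and 1, 1, 4 and 1 of the 10. The median log2 fold change of the 10 genes was 0.12 at D10 against 0.0037 over all genes tested. All comparisons against D0 share the same D0 libraries.

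**Figure D1:**
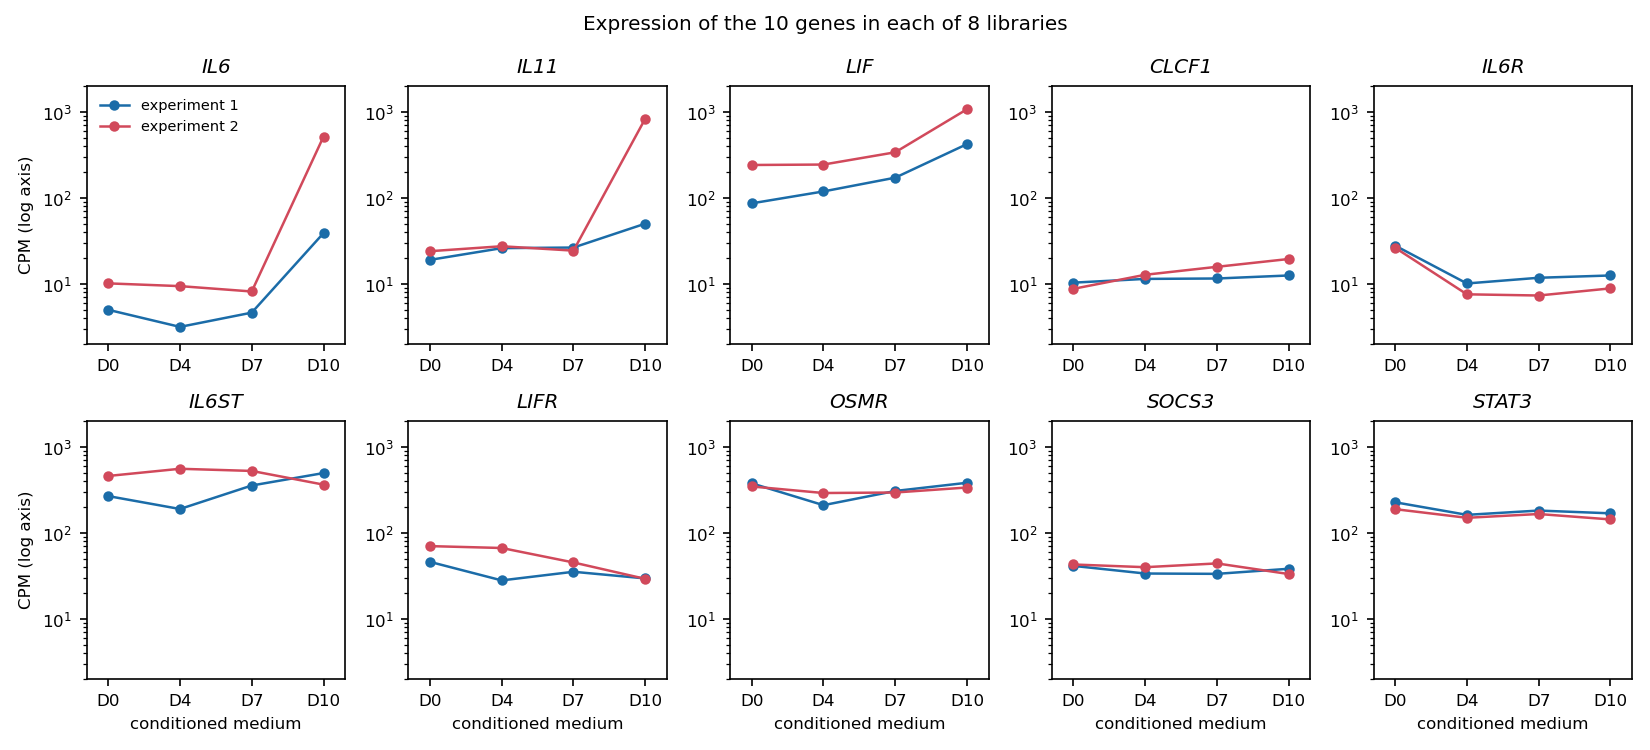
CPM of each gene (vertical, log axis) in recipients of D0, D4, D7 and D10 medium (horizontal), with 1 line per independent experiment and 1 point per library. IL6, IL11 and LIF are highest at D10 in both experiments, IL6R is highest at D0 in both, and SOCS3 and STAT3 stay within a narrow range.

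Among the ligands, IL6, the founding cytokine of the family, was low until D10. In experiments 1 and 2 its level was 5.03 and 10.2 CPM at D0, 3.18 and 9.47 CPM at D4, 4.66 and 8.20 CPM at D7, and 39.1 and 517 CPM at D10. Both D10 libraries lay above all 6 others, and the 3 earlier groups overlapped one another. D10 exceeded D0 by 7.78-fold in experiment 1 and 50.7-fold in experiment 2, and the fitted log2 fold change was 5.18 (SE 1.18, edgeR adjusted p = 0.131). With the experiment as a block the rise was called, at 4.63 (95% interval 3.13 to 6.12, edgeR adjusted p = 0.0058). Leaving out the D10 library of experiment 2 brought the log2 fold change down to 2.36 (edgeR adjusted p = 0.418) without the block and to 3.02 with it (edgeR adjusted p = 5.86e-06). Leaving out the D10 library of experiment 1 instead gave 6.09, past the threshold without the block (edgeR adjusted p = 0.0142). From D7 to D10 the blocked log2 fold change was 4.82 (edgeR adjusted p = 0.0284). At D4 and D7 the fitted changes were -0.27 and -0.25, with 95% intervals of -2.70 to 2.16 and -2.68 to 2.18, so that sizeable changes in either direction were not detectable there.

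IL11, a cytokine that signals through IL11RA and IL6ST, also had its highest levels at D10, and the experiments parted there. Its level was 19.1 and 24.1 CPM at D0, 26.2 and 27.5 CPM at D4, 26.6 and 24.5 CPM at D7, and 50.4 and 836 CPM at D10. The 2 D10 libraries were the highest of the 8, and they differed from each other by 16.6-fold, where the D0, D4 and D7 pairs differed by at most 1.26-fold. D10 exceeded D0 by 2.64-fold in experiment 1 and 34.7-fold in experiment 2. The log2 fold change was 4.36 (SE 1.06, edgeR adjusted p = 0.162), and with the block it was 3.95 and just missed the threshold (edgeR adjusted p = 0.0509), while DESeq2 called it (adjusted p = 0.0111). Without the D10 library of experiment 2 the log2 fold change fell to 1.22 (edgeR adjusted p = 0.274), and to 1.27 in the blocked fit (edgeR adjusted p = 0.00123). Without the D10 library of experiment 1 it was 5.29 (edgeR adjusted p = 0.0011). The size of the IL11 difference thus rests mostly on 1 library. In that library COL1A1 and the summed fibroblast markers were also lowest, and their part in the result was not tested.

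LIF, which signals through LIFR and IL6ST, differed between experiments at every day but changed by nearly the same factor in both. It stood at 86.6 and 242 CPM at D0, 119 and 245 CPM at D4, 172 and 340 CPM at D7, and 423 and 1074 CPM at D10. Experiment 2 was 1.97 to 2.79-fold above experiment 1 within each group, so the groups overlapped until D10, where both libraries exceeded the other 6. The D10 level was 4.88-fold and 4.44-fold that of D0 in experiments 1 and 2. The fit without a block, which counts the gap between experiments as error, gave 2.19 (SE 0.67, edgeR adjusted p = 0.307), and the blocked fit gave 2.21 (95% interval 1.79 to 2.64, edgeR adjusted p = 0.000656). The blocked log2 fold change was 2.12 without the D10 library of experiment 2 and 2.32 without that of experiment 1. Between D7 and D10 LIF rose by 2.46-fold and 3.16-fold (blocked log2 fold change 1.48, edgeR adjusted p = 0.0176). At D7 the ratio to D0 was 1.99 in experiment 1 and 1.40 in experiment 2, which did not pass with the block (0.74, edgeR adjusted p = 0.122), and at D4 it was 1.38 and 1.01.

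CLCF1, a cytokine that acts through CNTFR, LIFR and IL6ST, was measured at 10.4 and 8.81 CPM at D0, 11.5 and 12.8 CPM at D4, 11.6 and 15.9 CPM at D7, and 12.6 and 19.6 CPM at D10. All D4, D7 and D10 libraries lay above both D0 libraries. The D10 ratio was 1.21 in experiment 1 and 2.22 in experiment 2. The log2 fold change was 0.74 (95% interval 0.05 to 1.44, edgeR adjusted p = 0.565), and it was not called with the block either (edgeR adjusted p = 0.14). The blocked value was 0.98 without the D10 library of experiment 1 and 0.46 without that of experiment 2. The 4 ligands were all of the genes among the 10 whose D10 libraries lay wholly above their D0 libraries, a pattern that 15% of all genes tested had.

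**Figure D2:**
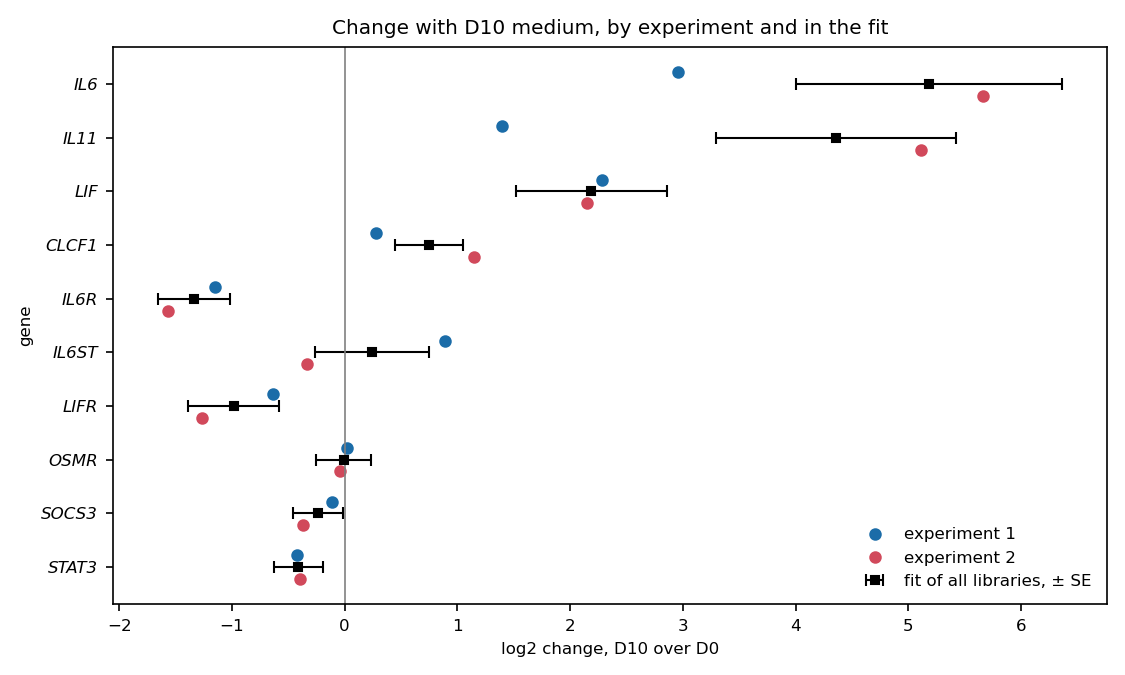
Log2 change from D0 to D10 (horizontal) for each gene (vertical), as the ratio of CPM within experiment 1 and experiment 2 (circles) and as the fitted value without a block ± SE (squares). LIF shows nearly equal changes in both experiments, IL6 and IL11 differ by 2.71 and 3.72 log2 units between them, and IL6ST points in opposite directions.

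IL6R, the chain that gives IL-6 its binding specificity, was the receptor with the clearest difference, and it appeared with the earliest medium. Its level was 28.0 and 26.4 CPM at D0, 10.2 and 7.60 CPM at D4, 11.8 and 7.37 CPM at D7, and 12.6 and 8.91 CPM at D10. Both D0 libraries lay above all 6 others, which in turn overlapped. The level with D4 medium was 2.75-fold lower than at D0 in experiment 1 and 3.47-fold lower in experiment 2, and at D10 it was 2.22-fold and 2.96-fold lower. The log2 fold change was -1.61 at D4 (SE 0.32, edgeR adjusted p = 0.757), -1.50 at D7 (edgeR adjusted p = 0.315) and -1.34 at D10 (edgeR adjusted p = 0.149). With the block IL6R fell on all 3 days, with edgeR adjusted p = 0.0197 at D4, 0.0135 at D7 and 0.00595 at D10. DESeq2 without a block made the same calls (adjusted p = 0.0191, 0.0158 and 0.0241). D10 did not differ detectably from D7, with a log2 fold change of 0.16 and a 95% interval of -0.57 to 0.90. Without the D10 library of experiment 2 the D10 value was -1.11, and -1.30 with the block (edgeR adjusted p = 0.00488).

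IL6ST, the shared signalling chain, had no common direction in the experiments at D4 and D10, while at D7 it lay above D0 in both, by 1.33-fold and 1.14-fold. It was at 267 and 458 CPM at D0, 189 and 555 CPM at D4, 355 and 524 CPM at D7, and 495 and 363 CPM at D10. In experiment 1 the D10 library was 1.85-fold above D0, and in experiment 2 it was 1.26-fold below. The fitted log2 fold change at D10 was 0.24 with a 95% interval of -0.94 to 1.42 (edgeR adjusted p = 0.998). Without the D10 library of experiment 2 the blocked value was 0.98 (edgeR adjusted p = 0.0267), and without that of experiment 1 it was -0.41, so the direction depends on which experiment is read. Whether the effect of D10 medium differs between experiments could not be tested with 1 library of each kind.

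LIFR, the LIF receptor, was at 46.0 and 70.1 CPM at D0, 28.0 and 66.7 CPM at D4, 35.3 and 45.3 CPM at D7, and 29.5 and 29.2 CPM at D10. It lay below D0 by 1.56-fold and 2.40-fold at D10, where the 2 libraries agreed closely and did not overlap D0. The log2 fold change of -0.98 did not pass (95% interval -1.92 to -0.05, edgeR adjusted p = 0.572, and 0.0858 with the block). The blocked value of LIFR was -1.31 without the D10 library of experiment 1 and -0.57 without that of experiment 2. OSMR, the oncostatin M receptor chain, was at 376 and 346 CPM at D0, 210 and 290 CPM at D4, 306 and 294 CPM at D7, and 381 and 336 CPM at D10. Its D4 and D7 libraries lay below both D0 libraries and its D10 libraries overlapped them. The D10 log2 fold change of OSMR was -0.01 with a 95% interval of -0.57 to 0.56, and at D4 it was -0.53 (edgeR adjusted p = 1, and 0.485 with the block).

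SOCS3, a direct target of STAT3 that shuts off IL6ST signalling, showed no rise at D10. It was measured at 41.3 and 42.9 CPM at D0, 33.7 and 39.9 CPM at D4, 33.4 and 44.1 CPM at D7, and 38.2 and 33.2 CPM at D10. Both D10 libraries lay below both D0 libraries, by 1.08-fold in experiment 1 and 1.29-fold in experiment 2, with a log2 fold change of -0.24 (SE 0.22, edgeR adjusted p = 0.998). The 95% interval of -0.75 to 0.28 does not reach a 2-fold rise, and in the blocked fit it was -0.61 to 0.15. The blocked value of SOCS3 was -0.44 without the D10 library of experiment 1 and -0.02 without that of experiment 2. STAT3 itself was at 226 and 188 CPM at D0, 162 and 149 CPM at D4, 181 and 165 CPM at D7, and 168 and 143 CPM at D10. All later libraries of STAT3 lay below both D0 libraries, and the D10 level was 1.34-fold and 1.32-fold lower in experiments 1 and 2. This difference was not called (log2 fold change -0.41, 95% interval -0.92 to 0.09, edgeR adjusted p = 0.8, and 0.151 with the block). IL6R, LIFR, SOCS3 and STAT3 were the 4 of the 10 whose D10 libraries lay wholly below D0, against 16% of all genes tested. The messenger level of STAT3 says nothing of its phosphorylation, which was not measured in these libraries.

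Per length of exon, the order of the genes changed between D0 and D10. At D0 the mean CPM per kb was highest for OSMR (50.3 ± 3.01, SD, n = 2), LIF (41.4 ± 27.6) and IL6ST (39.0 ± 14.5), whose ranges overlapped. STAT3 (23.5 ± 3.06 CPM per kb) overlapped the lowest LIF library, SOCS3 followed at 15.4 ± 0.404, and IL11 stood alone below it at 8.09 ± 1.32. LIFR, CLCF1, IL6R and IL6 were lowest, between 3.68 and 4.89 CPM per kb in the mean, with overlapping libraries. At D10 the ligands LIF (189 ± 116 CPM per kb), IL11 (166 ± 208) and IL6 (134 ± 163) had the highest means and wide, overlapping ranges, ahead of OSMR at 50.02 ± 4.46. The places of IL6 and IL11 rest on the D10 library of experiment 2, since in experiment 1 both were at 18.9 CPM per kb, below OSMR (53.2), IL6ST (53.2) and STAT3 (19.1). IL6R was lowest at D10, at 1.67 ± 0.403 CPM per kb, and its libraries did not overlap those of LIFR at 2.47 ± 0.0207.

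**Figure D3:**
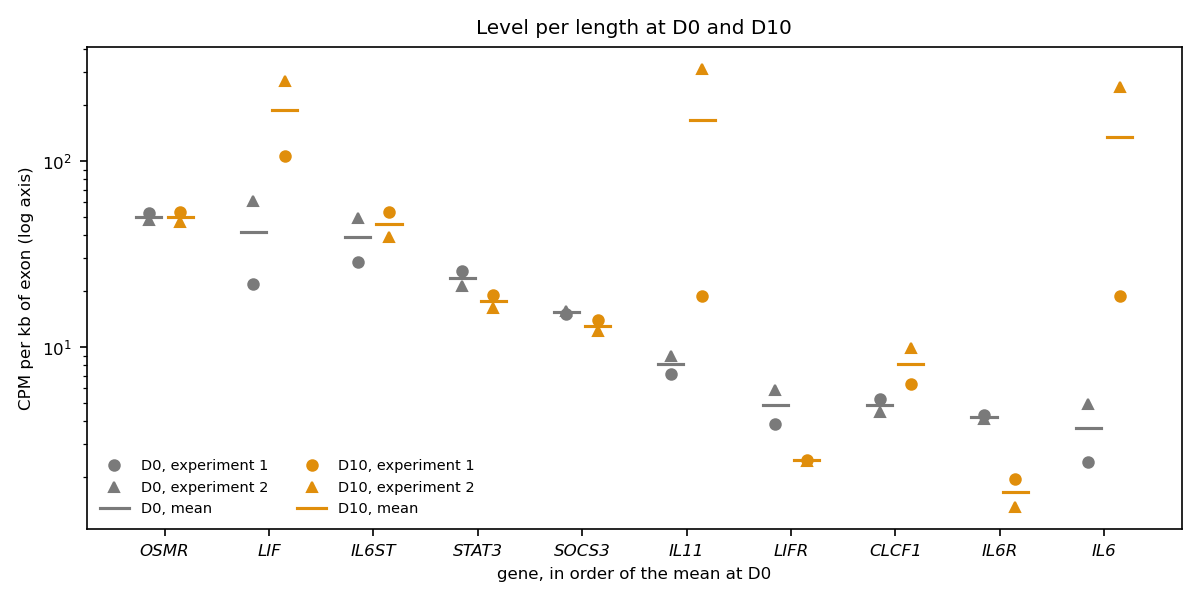
CPM per kb of exon (vertical, log axis) for each gene (horizontal, in order of the D0 mean), with circles for experiment 1, triangles for experiment 2 and lines for the mean of both. At D10 IL6 and IL11 exceed 200 CPM per kb in experiment 2 and stay under 20 in experiment 1, while OSMR is nearly the same in all 4 libraries.

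Over the 8 libraries the log2 CPM of IL6, IL11 and LIF moved together, with Pearson's r of 0.95 for IL6 and IL11, 0.91 for IL6 and LIF, and 0.83 for IL11 and LIF. SOCS3 had r of -0.29 with IL6 and -0.16 with LIF, and its closest member was LIFR at 0.74, while IL6R and STAT3 had r of 0.86. These are descriptions over 8 libraries in 4 groups that share their experiments, and 2 D10 libraries set most of the range of the ligands. Without the D10 library of experiment 2, r was 0.80 for IL6 and IL11, 0.81 for IL6 and LIF and 0.70 for IL11 and LIF, and that of SOCS3 turned to 0.35 with IL6 and 0.33 with LIF. The genes named next for their likeness were chosen over all 8 libraries. The 5 genes of the whole table with a pattern most like IL6 were GAREM1 (r = 0.99), the NAD-salvage enzyme NAMPT (0.99), the chemokine CXCL3 (0.99), RGS18 (0.99) and the chemokine CCL20 (0.99). Of these NAMPT was measured at 12.8 and 22.3 CPM at D0 and 71.3 and 526 CPM at D10. CXCL3, RGS18 and CCL20 were near the floor in the D0, D4 and D7 libraries, with 0 to 4, 3 to 9 and 0 to 3 counts. The D10 libraries thus set most of their range. The 5 most like SOCS3 were the phosphatase PPM1D (r = 0.98), APOL6 (0.97), SERTAD4 (0.94), SETBP1 (0.93) and the proteoglycan BGN (0.93). BGN and SOCS3 both covered less than a 2-fold range over the 8 libraries.

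The rest of the pathway from ligand to nucleus was described with a list of 35 genes, of which 33 were in the table and 29 could be tested. None passed in any of the 4 comparisons without the block by edgeR, with 3, 4, 4 and 1 at an unadjusted p under 0.05. With the block 1 passed at D4, 1 at D7, 2 at D10 and 0 for D10 against D7, and DESeq2 called 2, 1, 2 and 0. Of all genes tested, 0.275%, 1.25%, 4.99% and 0.319% passed with the block, and DESeq2 called 0.287%, 0.785%, 2.17% and 0.446%. The counts of the list were not tested against these shares. The median log2 fold change of the list at D10 was 0.19. SOCS2, a feedback inhibitor best known for growth hormone receptor signalling, was the gene that rose on all 3 days with the block. Its level was 17.2 and 19.4 CPM at D0, 41.8 and 50.2 CPM at D4, 40.3 and 48.7 CPM at D7, and 49.9 and 74.7 CPM at D10. Every later library lay above both D0 libraries, and the rise was already 2.43-fold and 2.59-fold at D4 in experiments 1 and 2. At D10 the log2 fold change of SOCS2 was 1.77 (SE 0.26, edgeR adjusted p = 0.0504, and 0.000722 with the block). Within experiments 1 and 2 the D10 library stood 2.90-fold and 3.86-fold above D0 for SOCS2, where SOCS3 was below D0 in both. Without the D10 library of experiment 2 the blocked value of SOCS2 was 1.57, and without that of experiment 1 it was 1.93.

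STAT5A, a STAT best known downstream of growth hormone and prolactin, had the highest D10 log2 fold change among kinases and STATs, at 1.03 (edgeR adjusted p = 0.565, and 0.0687 with the block). In the feedback class CISH had the lowest D10 value, -0.15. The 2 sheddases that can release soluble IL-6 receptor, ADAM10 and ADAM17, had D10 log2 fold changes of 0.03 and 0.14, with edgeR adjusted p = 0.998 for both.

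Among the other ligands of the family, CTF1 lay between 17.7 and 28.3 CPM, EBI3 at most at 1.35 CPM and CNTF at most at 0.947 CPM in any library, and their D10 log2 fold changes were 0.17, 0.80 and 0.47, none of them called with or without the block. IL31 and CNTFR had at most 1 count in any library. The count table held no gene under the symbols OSM (oncostatin M) or IL27, so neither could be followed. IL11RA, the specific receptor for IL-11, was at 19.1 and 17.8 CPM at D0 and at 10.5 and 13.1 CPM at D10, where both libraries lay below both D0 libraries. Its log2 fold change was -0.64 (95% interval -1.27 to -0.01, edgeR adjusted p = 0.616, and 0.161 with the block). IL31RA was at 5.70 and 4.37 CPM at D0, 11.2 and 11.2 CPM at D7, and 12.4 and 6.07 CPM at D10. Its log2 fold change was 1.15 at D7 (edgeR adjusted p = 0.876, and 0.247 with the block) and 0.87 at D10 (edgeR adjusted p = 0.687, and 0.256 with the block). IL27RA had a D10 value of 0.36.

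Genes listed as STAT3 targets, a list written from general knowledge of the pathway, were read next. Of 27 such genes 26 were in the table and 23 were tested. None passed without the block by edgeR in any comparison, with 3, 1, 5 and 5 at an unadjusted p under 0.05. With the block 5 rose and 0 fell at D10, 2 fell and 0 rose at D7, and 0 passed at D4 or for D10 against D7, and DESeq2 called 0, 0, 4 and 1. Of all 13798 genes tested, 350 rose and 338 fell at D10 with the block, and 70 rose and 102 fell at D7. DESeq2 called 2.17% of all genes at D10 and 0.446% for D10 against D7. The list's median log2 fold change was 0.10 at D4, 0.23 at D7 and 0.50 at D10, and 12 of 23 had D10 libraries wholly above D0 and 0 wholly below, against 15% and 16% of all genes tested. Many of these genes also answer to other pathways, so their change says nothing of STAT3 by itself.

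The 5 that rose were CHI3L1, IL4R, CEBPB, MCL1 and VEGFA. CHI3L1, a secreted chitinase-like protein, was at 6.87 and 4.00 CPM at D0 and at 21.1 and 194 CPM at D10, a 3.06-fold and a 48.4-fold difference in experiments 1 and 2 (log2 fold change 4.31, SE 0.97, edgeR adjusted p = 0.131, and 0.0276 with the block). The IL-4 receptor gene IL4R was at 58.9 and 56.3 CPM at D0 and at 154 and 367 CPM at D10, 2.62-fold and 6.51-fold higher in the experiments (2.18, edgeR adjusted p = 0.0749, and 0.00661 with the block). Both genes had higher D10 levels in experiment 2 than in experiment 1, as did CEBPB, MCL1 and VEGFA and the ligands IL6, IL11, LIF and CLCF1. CEBPB, a transcription factor of the senescence secretome, was at 87.4 and 60.6 CPM at D0 and at 152 and 229 CPM at D10, 1.73-fold and 3.78-fold higher (1.36, edgeR adjusted p = 0.134, and 0.0202 with the block). The survival factor MCL1 rose by 2.09-fold and 2.08-fold in the experiments (1.06, edgeR adjusted p = 0.207, and 0.00617 with the block), and VEGFA by 1.55-fold and 2.38-fold (1.04, edgeR adjusted p = 0.652, and 0.0213 with the block). In the blocked fit without the D10 library of experiment 2 the log2 fold changes were 2.12 for CHI3L1, 1.44 for IL4R, 0.86 for CEBPB, 1.06 for MCL1 and 0.64 for VEGFA, and without that of experiment 1 they were 4.99, 2.67, 1.87, 1.08 and 1.26. In the same fits and the same order, PIM1, another gene of the list, had values of -1.02 and -0.36.

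CEBPD and PIM1 were lower with the earlier media. CEBPD, a transcription factor of the acute-phase response, was at 92.4 and 98.9 CPM at D0, 42.8 and 41.2 CPM at D4, 31.4 and 44.6 CPM at D7, and 74.6 and 160 CPM at D10. It fell at D7 with the block (log2 fold change -1.36, edgeR adjusted p = 0.0472), and its D10 libraries lay on either side of D0. PIM1, a kinase gene induced by STATs, was at 22.0 and 37.0 CPM at D0, 7.87 and 17.9 CPM at D7, and 10.3 and 29.9 CPM at D10, and it fell at D7 with the block (-1.26, edgeR adjusted p = 0.0361). At D10 PIM1 had the lowest value of the list, -0.56 (edgeR adjusted p = 0.998). FOS separated the experiments rather than the groups, with 7 to 31 counts in experiment 1 and 2581 to 4465 in experiment 2. The acute-phase genes SAA1 and CRP stayed at or below 1.57 CPM in every library. A2M, also on the list, lay between 66.9 and 234 CPM.

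**Figure D4:**
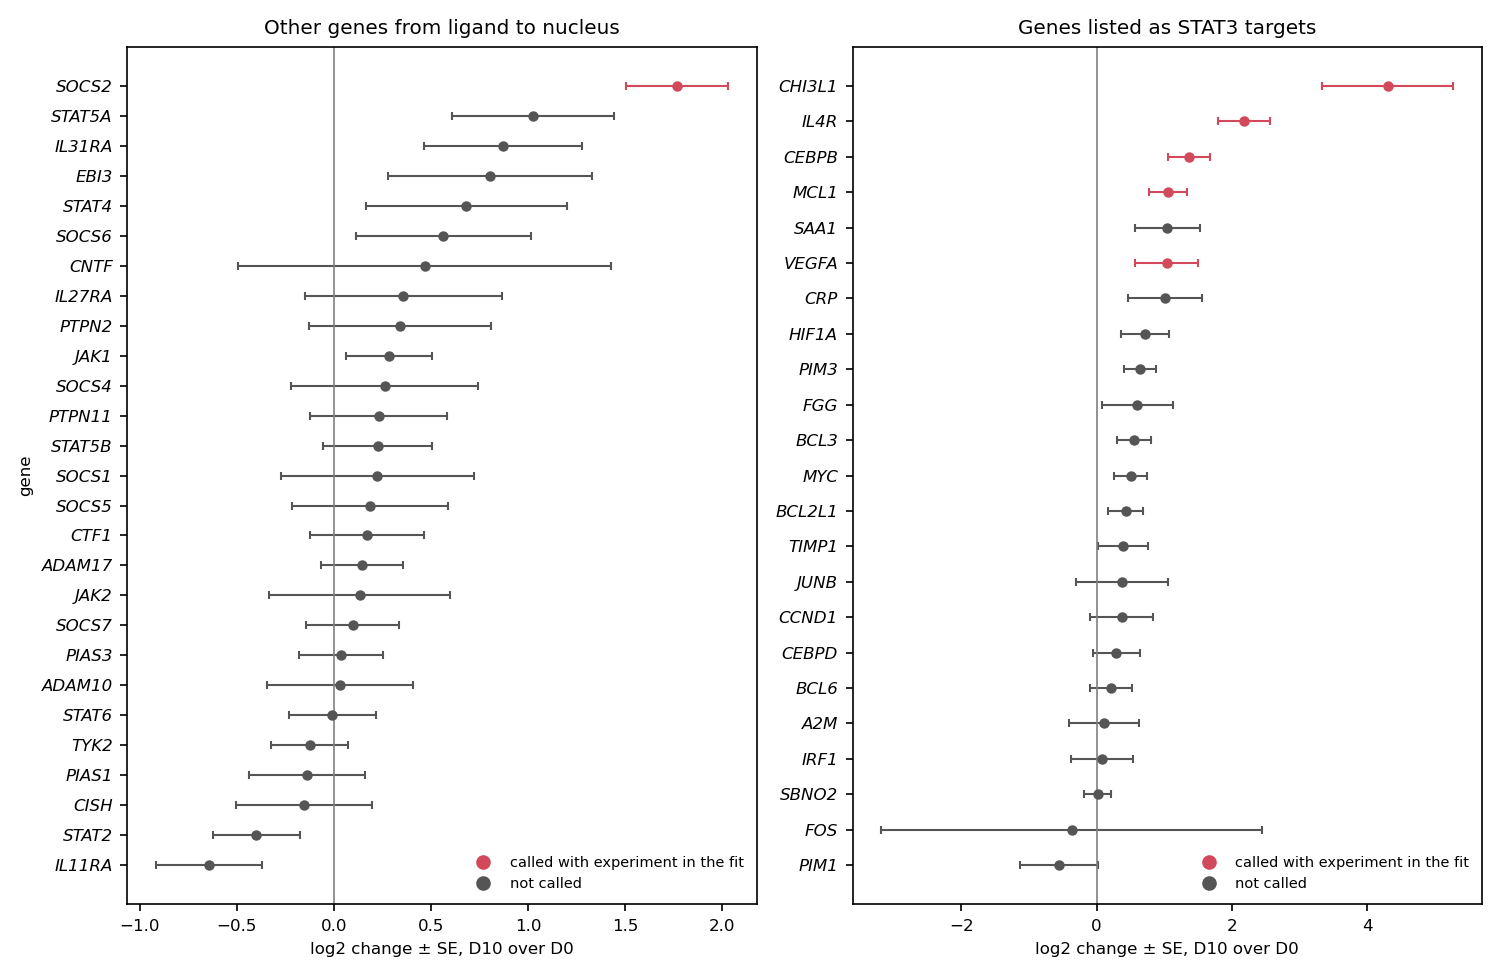
Fitted log2 change from D0 to D10 without a block ± SE (horizontal) for tested genes (vertical) of the ligand-to-nucleus list and of the STAT3 target list. Red points mark genes called in the fit with the experiment as a block, which are SOCS2 on the left and CHI3L1, IL4R, CEBPB, MCL1 and VEGFA on the right.

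The genes lie, on GRCh38 as annotated in GENCODE release 29, at chr7:22725884-22732002 (IL6), chr19:55364389-55370463 (IL11), chr22:30240447-30246851 (LIF), chr11:67364168-67374177 (CLCF1), chr1:154405193-154469450 (IL6R), chr5:55935095-55994993 (IL6ST), chr5:38474963-38608354 (LIFR), chr5:38845858-38945596 (OSMR), chr17:78356778-78360077 (SOCS3) and chr17:42313324-42388568 (STAT3). Counting was not stated to use strand, so reads of a gene and an antisense partner may not be separated. In IL6 20.7% of the exon bases are covered by the antisense gene AC073072.1, with 0 and 1 counts of its own in the D0 libraries and 7 and 31 in the D10 libraries. In IL6ST 8.58% of exon bases are covered by the antisense gene AC008914.1, and other genes, among them the pseudogene IL6STP1, hold 9.59% of its 50-base words. The covered share is 6.73% in LIF, 5.30% in LIFR, 3.19% in OSMR and 3.09% in CLCF1. For IL11, IL6R, SOCS3 and STAT3 no exon base is covered by another gene.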

How the data were processed

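Poly(A) RNA of IMR90 recipients was made into stranded libraries. The submitters' processing notes name STAR 2.5, DESeq2 and GRCh38 without roles, and the counter, strand setting and annotation are not given in the sources used here. The authors deposited counts of reads per gene without normalization. A column headed DO was taken as D0 replicate 1, and 8 columns of normalized values were not used. Genes were filtered with filterByExpr, scaled with TMM and tested with edgeR 4.0.16 (glmQLFit and glmQLFTest, R 4.3.3) by group over all 8 libraries, at an adjusted p of 0.05. DESeq2 1.42.0 was an alternative, and log2 CPM used a prior count of 2. Alternatives were the size factors of DESeq2, a filter of 10 counts in each library or no filter, a fit of only the groups compared, a replicate block and leaving out each library, and, chosen after seeing the data, the block without either D10 library and correlations without that of experiment 2.

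The replicate numbers were taken to pair the libraries, because the methods describe 2 independent experiments. The sample titles give replicate numbers, and the methods do not say that a number marks the same experiment across days, so the pairing is inferred. Libraries sharing a number departed from their group means together (r across genes, which are not independent replicates, of 0.418 to 0.722 in the 6 pairs of groups). The block lowered the common dispersion from 0.0792 to 0.0242. Replicates differed beyond sampling noise in every group. The genes and lists were chosen with earlier results of these data known. Named genes are all 10 members and every tested ligand and receptor. Of the other lists, genes called in a fit or with the highest or lowest D10 value are named. The 5 genes most correlated with IL6 and with SOCS3 are named too. Marker, check and overlapping genes, and FOS, SAA1, CRP and A2M, were named outside this rule. The results of 2 genes of the lists are not reported here. Of the gene identifiers 99.6% are in GENCODE 29, which gave positions and exon lengths, and promoter windows came from RefSeq. The tests were checked on simulated counts with a single dispersion for all genes and no difference between experiments, which is simpler than these data. Figures were drawn with Python 3.11.15.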

Additional observations from a re-analysis of the deposited data

How the results depend on the processing

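Without a block, edgeR called 0 of the 10 genes, of the ligand-to-nucleus list and of the STAT3 target list in each comparison. The shares of all genes called are given above for the block and for DESeq2, and not for the other alternatives. Under those others, a count does not show whether a list was called more often than all genes. The alternatives that moved the counts of the 10 genes and of the lists were as follows. For the 10 genes, DESeq2 called 1 at D4, 1 at D7, 4 at D10 and 1 for D10 against D7, no filter called 1 at D7, 4 at D10 and 2 for D10 against D7, and the replicate block called 1, 1, 3 and 2. The block without the D10 library of experiment 1 called 1, 2, 6 and 4, and without that of experiment 2 it called 1, 2, 5 and 3. For the ligand-to-nucleus list, DESeq2 called 2 at D4, 1 at D7 and 2 at D10, no filter and DESeq2's size factors 1 each at D10, and the block 1, 1 and 2. The block without the D10 library of experiment 1 called 4, 5, 4 and 5 of this list, and without that of experiment 2 it called 4, 5 and 3 up to D10. For the STAT3 target list, DESeq2 called 4 at D10 and 1 for D10 against D7, no filter 3 and 2, and the block 2 at D7 and 5 at D10. The block without the D10 library of experiment 1 called 4, 6, 11 and 12 of these targets, and without that of experiment 2 it called 4, 6, 7 and 1. Leaving out 1 library without a block gave 0 to 2 of the 10 genes at D10 and for D10 against D7, 0 to 1 of the ligand-to-nucleus list at D10, and 0 to 2 and 0 to 3 STAT3 targets at D10 and for D10 against D7, in each case above 0 only without the D10 library of experiment 1. The causes were not tested.

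For single genes that were not called, the log2 fold change reversed direction in 32 cases. Leaving out 1 library at a time without a block gave, at D4, -1.26 to 0.33 for IL6, -0.46 to 1.07 for LIF, -0.94 to 0.61 for IL6ST and -1.05 to 0.19 for LIFR. At D7 the ranges were -0.71 to 0.35 for IL6, -0.063 to 0.72 for IL6ST and -0.33 to 0.071 for SOCS3, and at D10 they were -0.095 to 0.68 for IL6ST and -0.085 to 0.081 for OSMR. For D10 against D7 they were -0.13 to 0.52 for CLCF1, -0.14 to 0.55 for IL6R, -0.29 to 0.27 for IL6ST and -0.30 to 0.094 for SOCS3. The replicate block turned IL6ST to -0.037 at D4 and 0.070 for D10 against D7. The block without the D10 library of experiment 1 turned IL6ST to -0.072 at D4 and -0.41 at D10. The block without that of experiment 2 turned IL6ST to -0.080 at D4 and 0.67 for D10 against D7, OSMR to 0.12 at D10, and CLCF1 and SOCS3 to -0.051 and 0.11 for D10 against D7. The compared groups only gave 0.0036 for OSMR at D10. Of the other values of single genes under an alternative, 559 kept direction and side of the threshold, and 49 passed only under the alternative.

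With 2 libraries a group the precision is limited. Without the block, p-values rest on the spread between the 2 experiments. With the block, they rest on the spread left after the difference between experiments is removed. The block changed no call of the 10 genes other than those of IL6, LIF and IL6R.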
